A study of Rattus norvegicus with 18 samples.

Results

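The expression of 9 genes of glutamine metabolism and amino acid transport was examined in rat fibroblasts with and without human MYC: the transporter genes Slc1a5, Slc38a1, Slc38a2, Slc7a5 and Slc3a2, and the enzyme genes Glul, Glud1, Got1 and Got2. They were listed by symbol, by a rule that uses no measured value, although earlier results of these data were known when the list was made, and all 9 of the 9 listed symbols were among the 13188 genes of the table. The cells were HO15.19, a line of Rat1 fibroblasts that lacks myc and that is the background of every group. The 6 groups of 3 RNA-seq libraries of poly-A RNA were myc−/−, myc−/− siCtrl, myc−/− + MYC and, transfected on top of MYC, myc−/− + MYC siAHR-5, myc−/− + MYC siAHR-2 and myc−/− + MYC siCtrl. In the + MYC groups human MYC was expressed from a stably introduced retroviral vector (pBabe), so that its level did not depend on the rat promoter. siCtrl stands for a control siRNA, and siAHR-2 and siAHR-5 are 2 siRNAs against the aryl hydrocarbon receptor AHR. siRNAs were used at 40 nM and the transfected cells were harvested after 48 h. For myc−/− and myc−/− + MYC the labels give no siRNA, and they are taken here as untransfected. Nothing in the labels says whether the 3 libraries of a group came from separate cultures, so the p-values measure the spread between these libraries, which may be technical.

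Glutamine enters proliferating cells through sodium-coupled carriers of the plasma membrane and is converted to glutamate in mitochondria. Glutamate then feeds the tricarboxylic acid cycle as 2-oxoglutarate, either through glutamate dehydrogenase or through transaminases, which pass its amino group to other carbon skeletons. Glutamine synthetase runs the opposite reaction and makes glutamine from glutamate and ammonia. Part of the imported glutamine leaves the cell again through a large neutral amino acid antiporter, which takes up leucine and other essential amino acids in exchange. MYC is widely studied as a regulator of glutamine use in transformed cells.

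The values were log2 normalised read counts, which are relative to the other genes of a library and not to gene length, so no level was compared between genes. In bulk RNA, fewer cells that express a gene and less of its RNA per cell cannot be told apart. The deposited libraries lay on separate scales. The smaller set held 6 libraries, those of myc−/− + MYC and of myc−/− siCtrl, the larger set held the 12 libraries of the remaining 4 groups, and comparisons were made only within a set. By the labels, the comparison for MYC also changed the transfection in both sets, in opposite directions. Transfected cells without MYC were set against untransfected cells with MYC in the smaller set. Untransfected cells without MYC were set against siCtrl cells with MYC in the larger set. The myc−/− siCtrl values are headed control, which names no siRNA, and their group follows the sample label. Within either set the effects of MYC and of transfection cannot be told apart. Ahr ranged from 13.22 to 13.34 in siCtrl, from 11.97 to 12.03 in siAHR-2 (log2FC −1.29) and from 11.76 to 11.95 in siAHR-5 (log2FC −1.39), so both siRNAs lowered it. The row for Myc, listed under the rat gene symbol, was not at 0 in the libraries labelled myc−/−. It ranged from 9.16 to 9.47 in myc−/− siCtrl against 8.01 to 8.08 in myc−/− + MYC, and from 10.82 to 10.94 in myc−/− against 8.16 to 8.27 in myc−/− + MYC siCtrl. This row was thus lower in the libraries labelled + MYC, and whether it holds reads of the human transgene or of the deleted part of the rat gene is not given in the sources used here. All 11 fibroblast markers examined were in the table. With MYC 1 of them rose and 5 fell in the smaller set, where 26.8% of all genes were called, and 6 fell in the larger set, where 25.5% were (limma, at least 1.5-fold with an adjusted p below 0.01). Their summed level is the log2 of the sum of their unlogged values, so it mainly follows the few markers with the highest values. This summed level was 20.9 in every myc−/− siCtrl library against 20.0 in every myc−/− + MYC library. It ranged, in the larger set, from 22.0 to 22.2 in myc−/− and was 20.3 in every myc−/− + MYC siCtrl library. Col1a1, a defining fibroblast collagen, had a log2FC of −1.73 in the smaller set and −5.95 in the larger set, the largest fall of the 11 there. Col3a1 was the marker that rose in the smaller set (1.30), and its means were 14.88 in myc−/− and 14.80 in myc−/− + MYC siCtrl. Group means ranged only from 3.64 to 4.08 for Col1a2 and from 4.66 to 5.21 for Fap, so their place in the table does not show that they were expressed. Of 12 markers of epithelial, endothelial, blood and muscle cells, 9 were in the table, with summed levels from 10.0 to 10.7. A level above 0 does not show that a marker was present, since low values stood nearly constant within a group and apart between the sets, as for the endothelial marker Kdr with group means of 0.94 in myc−/− + MYC and 5.26 in myc−/− + MYC siCtrl. Of the 9 markers, Krt8 rose (log2FC 1.70 in the smaller set and 1.17 in the larger set) and Des fell (−1.29 and −1.14) with MYC. With the siRNAs the summed fibroblast level ranged from 20.07 to 20.11 in siAHR-2 and from 20.05 to 20.07 in siAHR-5, below 20.31 to 20.33 in siCtrl. Vim, which weighs most in this sum in these 3 groups, had means of 19.45 in siCtrl, 19.09 in siAHR-2 and 18.98 in siAHR-5. The median log2FC of the 11 markers was −0.04 with siAHR-2 and 0.02 with siAHR-5. Of the 11 fibroblast markers, Thy1 rose with siAHR-5 (log2FC 0.75), where 2.33% of all genes were called. At an adjusted p below 0.05 alone by limma, 4 passed with siAHR-2, 1 higher and 3 lower, beside 29.3% of all genes. With siAHR-5 5 passed, 3 higher and 2 lower, beside 39.2% of all genes. The summed level of the 9 markers of other cells ranged from 10.24 to 10.40 in these 3 groups. The part of either marker list in the results for the 9 genes was not tested.

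Of the 3 myc−/− + MYC libraries, replicate 1 had the lowest value of Slc1a5, Slc38a1, Slc38a2, Slc7a5, Slc3a2, Got1 and Glud1 and the highest of Glul and Got2, so it lay at an end of the range for all 9 genes, and leaving it out changed no call of the 9 genes.

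With MYC, the carrier genes Slc1a5 and Slc38a1 rose and the genes Slc7a5, Glul and Glud1 fell in both sets, each by at least 1.5-fold. Got1 and Got2 were higher and Slc3a2 and Slc38a2 lower in both sets by less than 1.5-fold, but after quantile normalization the difference of Slc38a2 in the larger set was −0.0298 and did not pass (limma adjusted p = 0.573). A gene was called when it changed by at least 1.5-fold with an adjusted p below 0.01 (limma, Benjamini-Hochberg adjustment over all 13188 genes), and log2FC is the mean log2 value of the first group minus that of the second. By this rule 2 of the 9 genes rose and 3 fell in the smaller set, where 26.8% of all genes were called, 12.5% higher and 14.3% lower. The same 2 genes rose and the same 3 fell in the larger set, where 25.5% of all genes were called, 10.8% higher and 14.7% lower. The median log2FC of the 9 genes was −0.34 in the smaller set and −0.24 in the larger set, beside medians of −0.0038 and −0.0001 over all genes. At an adjusted p below 0.05 with no limit on fold, all 9 genes passed in both sets, 4 higher and 5 lower, beside 76.2% of all genes in the smaller set and 64.7% in the larger one. The groups compared for MYC did not overlap for any of the 9 genes in either set, as was the case for 78.8% of all genes in the smaller and 70.5% in the larger set.

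**Figure D1:**
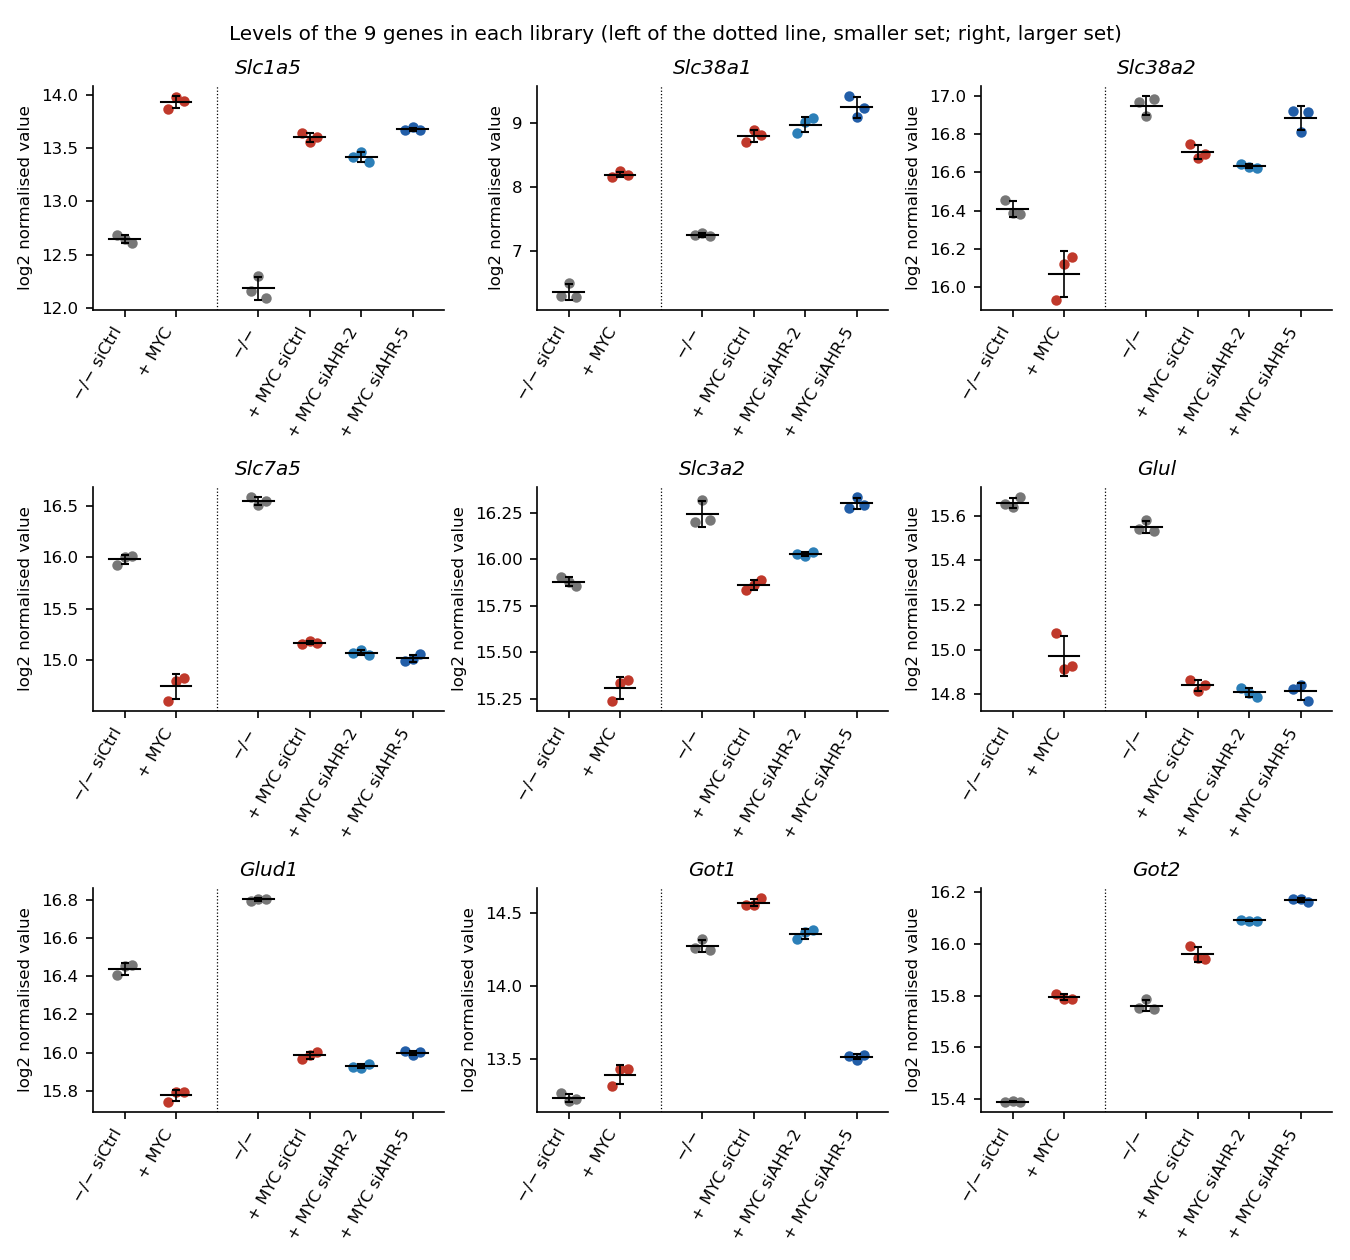
Log2 normalised values (vertical axis, a separate range for each gene) of the 9 genes in each of the 18 libraries. Points are libraries, black lines are means and bars are SD (n = 3). The dotted line separates the smaller set from the larger set, whose levels are on different scales. The groups without MYC (grey) and those with MYC and no siRNA against AHR (red) do not overlap within a set for any gene, whereas some siAHR groups (blue) overlap myc−/−, and Got1 stands lower in siAHR-5 (13.5) than in the other groups of its set.

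Slc1a5 encodes ASCT2, a sodium-dependent exchanger for glutamine and other neutral amino acids. Its log2 values were 12.69, 12.64 and 12.61 in myc−/− siCtrl and 13.87, 13.98 and 13.94 in myc−/− + MYC. Values in the larger set were 12.15, 12.30 and 12.09 in myc−/− and 13.64, 13.56 and 13.60 in myc−/− + MYC siCtrl. Every library with MYC was thus above every library without it by more than the spread within the groups. The log2FC was 1.28 (SE 0.0367, n = 3 against 3, limma adjusted p = 7.33e-11) in the smaller set, a 2.43-fold rise. The larger set had a log2FC of 1.42 (SE 0.0593, n = 3 against 3, limma adjusted p = 6.75e-06), a 2.67-fold rise.

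Slc38a1 encodes SNAT1, a sodium-coupled carrier that concentrates glutamine in the cell. It had the largest rise of the 9 genes in both sets. The log2 values were 6.29, 6.50 and 6.27 in myc−/− siCtrl and 8.16, 8.25 and 8.18 in myc−/− + MYC. The larger set gave 7.24, 7.27 and 7.22 in myc−/− and 8.71, 8.90 and 8.81 in myc−/− + MYC siCtrl. The distance between the groups was several times the range of either group. The log2FC was 1.84 (SE 0.0711, n = 3 against 3, limma adjusted p = 8.24e-10) and 1.56 (SE 0.0620, n = 3 against 3, limma adjusted p = 5.54e-06) in the smaller set and the larger set, which are rises of 3.59-fold and 2.95-fold.

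Slc38a2 encodes SNAT2, the paralogous carrier whose expression is known to adapt to amino acid supply, and in the RefSeq order of protein-coding genes (GRCr8) it is the neighbour of Slc38a1. It did not share the rise of Slc38a1. Its log2 values were 16.46, 16.39 and 16.38 in myc−/− siCtrl and 15.93, 16.12 and 16.16 in myc−/− + MYC, with a log2FC of −0.34 (limma adjusted p = 1.01e-04). The corresponding values of the larger set were 16.97, 16.89 and 16.99 in myc−/− and 16.75, 16.68 and 16.70 in myc−/− + MYC siCtrl, with a log2FC of −0.24 (limma adjusted p = 0.00204). In both sets the libraries with MYC of this comparison were lower, but the change was below 1.5-fold and was not called. After quantile normalization the difference in the larger set was −0.0298 (limma adjusted p = 0.573), so a fall there depends on the scaling. The difference of Slc38a1 minus Slc38a2 within a library ranged from −10.17 to −9.89 in myc−/− siCtrl and from −7.97 to −7.77 in myc−/− + MYC. It ranged, in the larger set, from −9.76 to −9.62 in myc−/− and from −8.03 to −7.78 in myc−/− + MYC siCtrl, so it was higher in every library with MYC than in every library without it.

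Slc7a5 encodes LAT1, the light chain of the antiporter that exports glutamine in exchange for leucine and other large neutral amino acids. It had the largest fall of the 9 genes in both sets. The log2 values were 15.93, 16.00 and 16.01 in myc−/− siCtrl and 14.61, 14.80 and 14.83 in myc−/− + MYC. Values in the larger set were 16.59, 16.51 and 16.54 in myc−/− and 15.16, 15.19 and 15.17 in myc−/− + MYC siCtrl. Each library with MYC was more than 1 log2 unit below each library without it. The log2FC was −1.23 (SE 0.0526, n = 3 against 3, limma adjusted p = 1.88e-09) in the smaller set and −1.38 (SE 0.0297, n = 3 against 3, limma adjusted p = 6.31e-07) in the larger set, so that the levels with MYC were 0.425 and 0.385 times those without it.

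Slc3a2 encodes 4F2hc (CD98), the heavy chain that brings LAT1 and other light chains to the plasma membrane. Its log2 values were 15.90, 15.88 and 15.86 in myc−/− siCtrl and 15.24, 15.34 and 15.35 in myc−/− + MYC, and the log2FC of −0.57 (SE 0.0339, limma adjusted p = 3.15e-08) lay just inside the 1.5-fold limit. Without myc−/− + MYC replicate 2 or replicate 3 it was −0.59, which was called. The larger set gave 16.20, 16.32 and 16.21 in myc−/− and 15.83, 15.86 and 15.89 in myc−/− + MYC siCtrl, with a log2FC of −0.38 (SE 0.0416, limma adjusted p = 3.64e-04). Both chains were therefore lower with MYC, and the light chain by more than the heavy chain. The difference of Slc7a5 minus Slc3a2 within a library ranged from 0.02 to 0.16 in myc−/− siCtrl and from −0.63 to −0.52 in myc−/− + MYC. It ranged, in the larger set, from 0.19 to 0.39 in myc−/− and from −0.72 to −0.67 in myc−/− + MYC siCtrl.

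Among the enzymes, Glul encodes glutamine synthetase, which makes glutamine. Its log2 values were 15.65, 15.64 and 15.68 in myc−/− siCtrl and 15.08, 14.91 and 14.92 in myc−/− + MYC, a log2FC of −0.69 (SE 0.0414, limma adjusted p = 3.54e-08). The corresponding values of the larger set were 15.54, 15.58 and 15.53 in myc−/− and 14.86, 14.82 and 14.84 in myc−/− + MYC siCtrl, a log2FC of −0.71 (SE 0.0272, limma adjusted p = 4.87e-06). After quantile normalization the log2FC was −0.47 in the smaller set and −0.51 in the larger set, below the 1.5-fold limit. The difference between the sets was −0.02 (95% interval −0.15 to 0.10, limma adjusted p = 0.762).

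Glud1 encodes glutamate dehydrogenase, which releases the amino group of glutamate as ammonia in mitochondria. Its log2 values were 16.40, 16.45 and 16.46 in myc−/− siCtrl and 15.74, 15.79 and 15.80 in myc−/− + MYC, a log2FC of −0.66 (SE 0.0290, limma adjusted p = 2.41e-09). Values in the larger set were 16.79, 16.80 and 16.81 in myc−/− and 15.97, 15.99 and 16.00 in myc−/− + MYC siCtrl, a log2FC of −0.82 (SE 0.0254, limma adjusted p = 2.24e-06). After quantile normalization the fall in the smaller set was −0.58, which no longer passed the limit. The enzyme genes for both the ammonia-releasing and the glutamine-forming reactions of glutamate were thus lower in every library with MYC than in every library without it.

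Got1 and Got2 encode the cytosolic and the mitochondrial aspartate transaminase, which exchange the amino group between glutamate and aspartate and serve the malate-aspartate shuttle. Got1 values were 13.27, 13.22 and 13.23 in myc−/− siCtrl and 13.32, 13.43 and 13.43 in myc−/− + MYC, a log2FC of 0.16 (limma adjusted p = 0.00234). The larger set gave 14.26, 14.32 and 14.24 in myc−/− and 14.55, 14.55 and 14.60 in myc−/− + MYC siCtrl, a log2FC of 0.29 (limma adjusted p = 3.28e-04). These differences exceeded the spread between libraries but stayed below 1.5-fold.

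Got2 values were 15.39 in all 3 myc−/− siCtrl libraries and 15.81, 15.79 and 15.79 in myc−/− + MYC, a log2FC of 0.40 (limma adjusted p = 4.75e-08). The corresponding values of the larger set were 15.75, 15.79 and 15.75 in myc−/− and 15.99, 15.95 and 15.94 in myc−/− + MYC siCtrl, a log2FC of 0.20 (limma adjusted p = 0.00123). Neither change was called, and no library with MYC lay as low as a library without it. The difference of Got1 minus Got2 within a library ranged from −2.17 to −2.12 in myc−/− siCtrl and from −2.49 to −2.35 in myc−/− + MYC, whereas in the larger set it ranged from −1.50 to −1.47 in myc−/− and from −1.44 to −1.34 in myc−/− + MYC siCtrl. With MYC the values of this difference were lower in the smaller set and higher in the larger set.

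**Figure D2:**
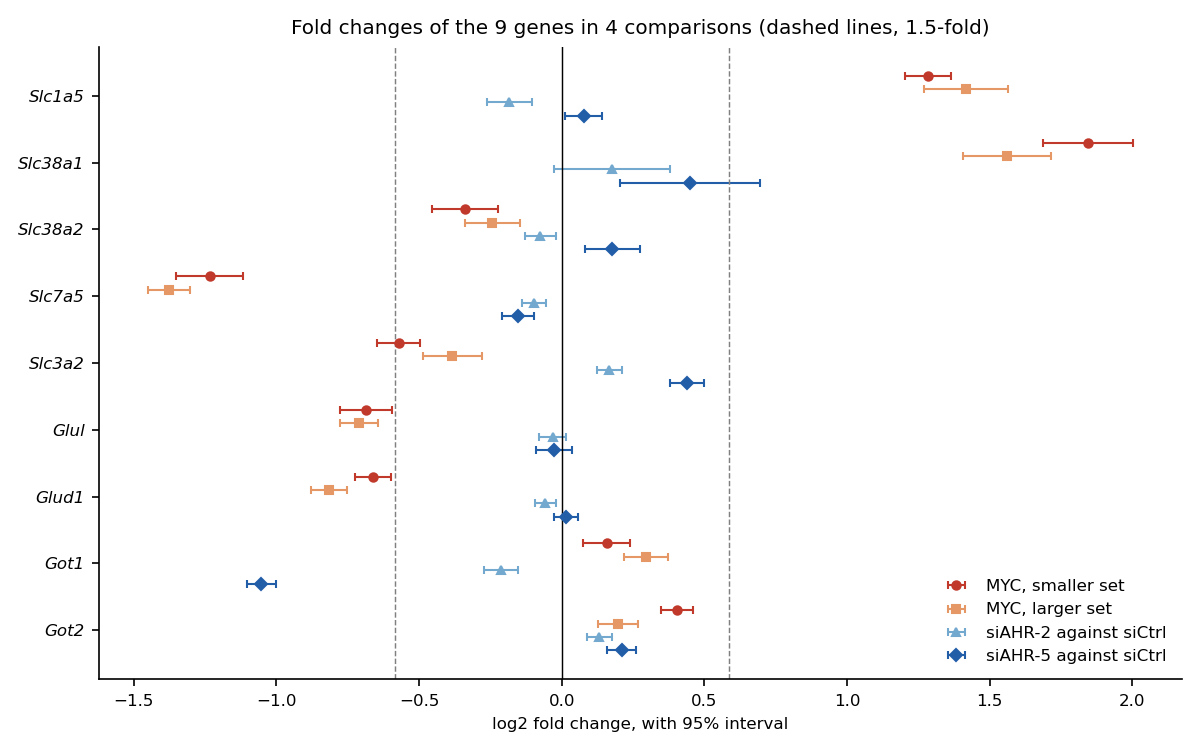
log2FC of the 9 genes with 95% intervals (limma, n = 3 against 3) in 4 comparisons, with dashed lines at 1.5-fold. Slc1a5 and Slc38a1 lie above and Slc7a5, Glul and Glud1 below the dashed lines in both comparisons for MYC, and Got1 in siAHR-5 (−1.05) lies outside them among the siRNA comparisons.

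The comparisons for MYC in the 2 sets share no library. All 9 genes had the same sign in both, as did 76.4% of all genes, and all 5 genes called in the smaller set were called in the same direction in the larger set. Of the 3538 genes called in the smaller set, 2081 (58.8%) were called in the same direction in the larger set, which are 61.9% of the 3361 genes called there. The difference between the sets (effect in the larger set minus effect in the smaller set) was called for none of the 9 genes, whereas 16.5% of all genes were called for it, and 5 of the 9 had an unadjusted limma p below 0.05, as did 59.6% of all genes. With an adjusted p below 0.05 and no limit on fold, the difference passed for 5 of the 9 genes and for 54.9% of all genes. These were Slc38a1 (−0.28, limma adjusted p = 0.0265), Got2 (−0.21, limma adjusted p = 0.00108), Slc3a2 (0.19, limma adjusted p = 0.0138), Glud1 (−0.15, limma adjusted p = 0.0107) and Got1 (0.14, limma adjusted p = 0.0488). For Slc1a5 the difference was 0.13 (95% interval −0.02 to 0.29) and for Slc7a5 −0.14 (95% interval −0.29 to 0.01), neither of which passed. Which genes passed at 0.05 depended on the scaling. After quantile normalization they were 3, Got2, Slc3a2 and Slc38a2 (0.25, limma adjusted p = 0.0133), while Slc38a1 was −0.08, Glud1 −0.06 and Got1 0.12. After median centring they were 5, Got1, Got2, Slc3a2, Slc1a5 (0.22, limma adjusted p = 0.0182) and Slc38a2 (0.18, limma adjusted p = 0.0472), while Slc38a1 was −0.20 and Glud1 −0.07. Got2 and Slc3a2 passed in each of these fits, and with the replicate number as a block Got1 did not (limma adjusted p = 0.0935). Single libraries also decided some of these values. Got1 lost 0.05 in 9 of the 12 fits that left out 1 library and Slc38a1 in 4, whereas Slc1a5 passed without myc−/− replicate 2 (0.19, limma adjusted p = 0.00666) and Slc7a5 without myc−/− + MYC replicate 1 (−0.21, limma adjusted p = 0.00353). In the other direction, Slc1a5 was 0.09 without myc−/− replicate 3 and 0.02 after quantile normalization. Slc7a5 was −0.06 after median centring, and none of these values passed.

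The stretches before the start sites of Slc7a5 and Slc38a1 are shown because these genes had the largest fall and the largest rise. RefSeq promoter windows (GRCr8) of 300 bases, from 250 bases before to 50 bases after a start site, were matched by symbol for 8 of the 9 genes, with 10 windows because Glul and Slc3a2 have 2 each. No window was matched for Slc1a5, so that gene was not searched. They were searched on both strands for CACGTG, the E-box bound by MYC with MAX, for GCGTG, the core of the AHR response element, and for TGATGNAAT, the C/EBP-ATF element of amino acid response genes. CACGTG was in 1 of the 10 windows, that of Slc7a5, and in 6.42% of all 33469 windows. GCGTG was in 8 of the 10 windows and in 29.7% of all windows. The 8 windows were those of Glud1, Got1, Got2, Slc7a5, Slc38a1 and Slc38a2 and both of Slc3a2. The windows of the 9 genes had a median of 62.7% G and C against 51.7% over all windows, and the part of base composition in the count of GCGTG was not tested. TGATGNAAT was in none of the 10 windows and in 1.09% of all windows. Its first 8 letters, TGATGNAA, a form searched after the sequences had been seen, were in the windows of Slc38a1 and Got1 and in 3.98% of all windows. CACGTG and GCGTG can share end letters, but their matches in these windows did not overlap, and every TGATGNAAT also holds TGATGNAA. A match describes the letters only, and binding was not measured. In the bases before the start sites, written 5′ to 3′ on the gene's strand, capitals mark CACGTG in Slc7a5 (GRCr8 chr19:66872413-66872662, minus strand), where it begins 179 bases before the start site, and TGATGNAA in Slc38a1 (GRCr8 chr7:129681402-129681651, minus strand), where it begins 142 bases before the start site.
Slc7a5: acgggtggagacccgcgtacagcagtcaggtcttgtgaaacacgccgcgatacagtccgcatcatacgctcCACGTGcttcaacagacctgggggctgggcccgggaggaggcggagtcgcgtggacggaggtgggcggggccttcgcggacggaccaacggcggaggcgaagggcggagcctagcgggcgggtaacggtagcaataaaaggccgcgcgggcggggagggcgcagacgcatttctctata
Slc38a1: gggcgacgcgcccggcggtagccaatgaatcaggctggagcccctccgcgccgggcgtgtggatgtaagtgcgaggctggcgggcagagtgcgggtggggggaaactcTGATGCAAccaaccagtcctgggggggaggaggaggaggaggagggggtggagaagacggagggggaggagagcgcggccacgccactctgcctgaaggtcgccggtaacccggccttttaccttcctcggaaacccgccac

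AHR was silenced in myc−/− + MYC cells with 2 siRNAs, which were each compared with the same 3 siCtrl libraries. With siAHR-2 none of the 9 genes changed by the call rule, where 0.47% of all genes were called, and 7 of the 9 had an unadjusted limma p below 0.05, as did 40.4% of all genes. The median log2FC of the 9 genes was −0.06, beside 0 over all genes. At an adjusted p below 0.05 without a limit on fold, 6 of the 9 genes passed with siAHR-2 by limma, beside 29.3% of all genes, and 6 passed with siAHR-5, beside 39.2%. With siAHR-5, 1 of the 9 genes fell, Got1, and none rose, where 2.33% of all genes were called, 1.48% higher and 0.849% lower. The median of the 9 genes was 0.08, beside 0.01 over all genes. In each of these comparisons the groups did not overlap for 7 of the 9 genes, beside 43.3% of all genes with siAHR-2 and 50.5% with siAHR-5.

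Got1 had the largest change of the 9 genes under either siRNA. Its log2 values were 14.55, 14.55 and 14.60 in siCtrl, 14.32, 14.37 and 14.38 in siAHR-2 and 13.52, 13.50 and 13.53 in siAHR-5. The 3 groups did not overlap, and the siAHR-5 libraries also lay below the myc−/− libraries of the same set, which had values from 14.24 to 14.32. Against siCtrl the log2FC was −1.05 (SE 0.0207, n = 3 against 3, limma adjusted p = 5.70e-05) with siAHR-5, which is 0.482 times the siCtrl level. With siAHR-2 it was −0.21 (SE 0.0233, n = 3 against 3, limma adjusted p = 0.00267). Of all genes, 0.091% had a lower log2FC than Got1 with siAHR-5. Compared directly, Got1 was lower in siAHR-5 than in siAHR-2 by a log2FC of −0.84 (SE 0.0219, n = 3 against 3, limma adjusted p = 5.21e-05), and it was the only one of the 9 genes called in that comparison, where 2.18% of all genes were called. At an adjusted p below 0.05 alone, 6 of the 9 genes and 39.1% of all genes passed it. Ahr itself did not pass that comparison (log2FC −0.11, 95% interval −0.25 to 0.04, limma adjusted p = 0.211).

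The stretch before the start site of Got1 is shown because this gene set the 2 siRNAs apart. It lies at GRCr8 chr1:252329872-252330121 on the minus strand, with the match to TGATGNAA in capitals on the opposite strand, beginning 167 bases before the start site. The same window held 2 matches to GCGTG, both on the opposite strand, which begin 226 and 196 bases before the start site.
Got1: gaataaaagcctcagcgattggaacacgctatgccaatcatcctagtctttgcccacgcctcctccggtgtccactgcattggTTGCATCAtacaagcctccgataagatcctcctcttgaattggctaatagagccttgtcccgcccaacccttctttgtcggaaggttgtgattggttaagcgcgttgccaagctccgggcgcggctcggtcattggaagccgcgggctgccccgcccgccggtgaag

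Got2, the mitochondrial partner, was higher with both siRNAs by small amounts. Its values were 15.99, 15.95 and 15.94 in siCtrl, 16.09 in all 3 siAHR-2 libraries and 16.17, 16.17 and 16.16 in siAHR-5, which are log2FC of 0.13 with siAHR-2 (limma adjusted p = 0.00486) and 0.21 with siAHR-5 (limma adjusted p = 0.00103). The 3 groups kept apart without overlap. The difference of Got1 minus Got2 within a library thus ranged from −1.44 to −1.34 in siCtrl, from −1.78 to −1.71 in siAHR-2 and from −2.68 to −2.64 in siAHR-5.

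Slc3a2, the heavy chain, was also higher with both siRNAs. Its values were 15.83, 15.86 and 15.89 in siCtrl, 16.03, 16.02 and 16.04 in siAHR-2 and 16.27, 16.33 and 16.29 in siAHR-5. The log2FC was 0.17 (SE 0.0174, limma adjusted p = 0.00237) with siAHR-2 and 0.44 (SE 0.0242, limma adjusted p = 3.35e-04) with siAHR-5, and siAHR-5 was above siAHR-2 by 0.27 (limma adjusted p = 3.61e-04). The siAHR-5 values overlapped those of the myc−/− libraries, which were 16.20, 16.32 and 16.21. Slc7a5, the light chain, went the other way by smaller amounts, with values of 15.07, 15.10 and 15.05 in siAHR-2 and 14.99, 15.01 and 15.06 in siAHR-5 below the siCtrl values of 15.16, 15.19 and 15.17. Its log2FC was −0.10 (limma adjusted p = 0.0110) with siAHR-2 and −0.15 (limma adjusted p = 0.00447) with siAHR-5, and the 2 siRNA groups overlapped. After quantile normalization the value with siAHR-2 was −0.0346 and did not pass 0.05 (limma adjusted p = 0.281). The difference of Slc7a5 minus Slc3a2 ranged from −0.72 to −0.67 in siCtrl, from −0.98 to −0.92 in siAHR-2 and from −1.32 to −1.24 in siAHR-5, without overlap.

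**Figure D3:**
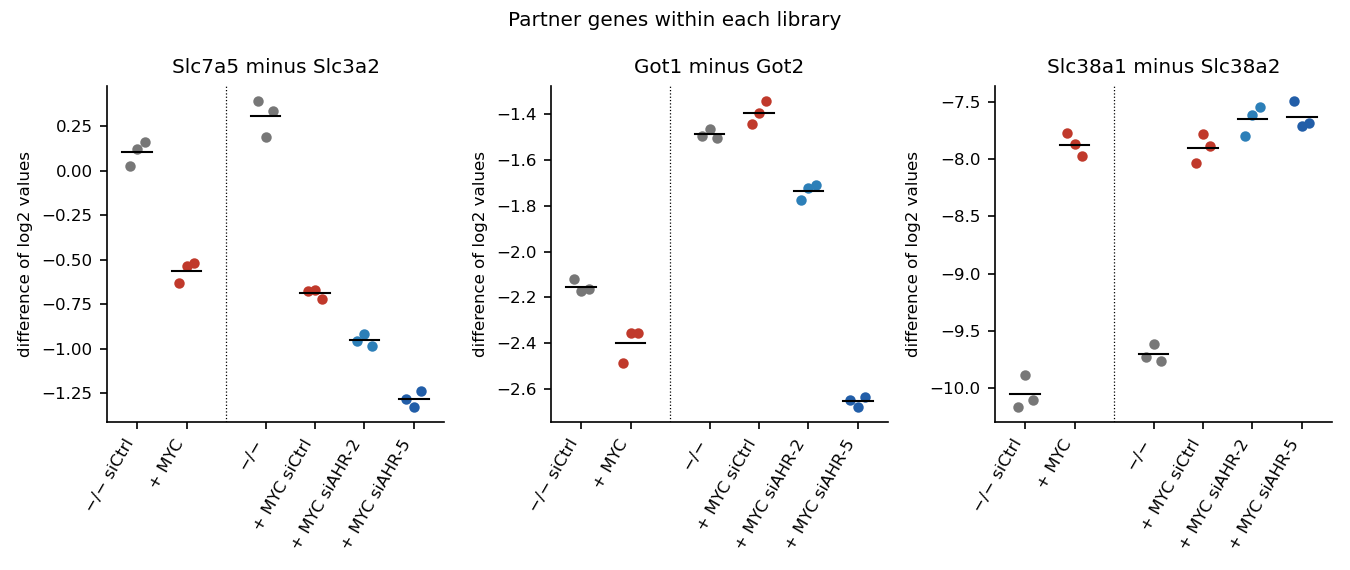
Difference of the log2 values of 2 partner genes within each library (vertical axis) for the antiporter chains, the aspartate transaminases and the neighbouring SNAT carriers. Points are libraries and black lines are means (n = 3), and the dotted line separates the smaller set from the larger set. Only changes between groups of a set can be read, because the values are not per gene length. Slc7a5 minus Slc3a2 is lower in the 2 siAHR groups than in siCtrl, and Got1 minus Got2 is lowest in siAHR-5.

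The glutamine carriers differed from siCtrl by less than 1.5-fold with either siRNA. Slc1a5 values were 13.41, 13.46 and 13.37 in siAHR-2, below the siCtrl values of 13.64, 13.56 and 13.60, with a log2FC of −0.18 (limma adjusted p = 0.0107). In siAHR-5 they were 13.67, 13.69 and 13.67, with a log2FC of 0.08 (95% interval 0.01 to 0.14, limma adjusted p = 0.0638, and 0.0405 without siCtrl replicate 1). siAHR-5 was above siAHR-2 by 0.26 (limma adjusted p = 0.00102), so the 2 siRNAs differed for this gene by less than 1.5-fold. Slc38a1 values were 8.85, 9.02 and 9.08 in siAHR-2, which overlapped the siCtrl values of 8.71, 8.90 and 8.81, with a log2FC of 0.18 (95% interval −0.03 to 0.38, limma adjusted p = 0.168). In siAHR-5 they were 9.43, 9.10 and 9.24, with a log2FC of 0.45 (95% interval 0.20 to 0.69, limma adjusted p = 0.0165, but 0.0577 with the replicate number as a block and 0.0529 to 0.0539 without siCtrl replicate 1, siCtrl replicate 3 or siAHR-5 replicate 3), and these 3 libraries had the widest spread of the 9 genes in any group (SD 0.164, n = 3).

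Slc38a2 values were 16.65, 16.63 and 16.62 in siAHR-2 and 16.92, 16.81 and 16.92 in siAHR-5, beside 16.75, 16.68 and 16.70 in siCtrl. The log2FC was −0.07 with siAHR-2 (limma adjusted p = 0.0536) and 0.18 with siAHR-5 (limma adjusted p = 0.0159), and siAHR-5 was above siAHR-2 by 0.25 (limma adjusted p = 0.00261). The value with siAHR-2 did not pass 0.05 and depended on the processing, since it was 0.0251 after quantile normalization (limma adjusted p = 0.614), on the other side of siCtrl, whereas it passed after median centring (−0.11, limma adjusted p = 0.00972), over genes with a mean of at least 5 (limma adjusted p = 0.0365) and without siCtrl replicate 2 (limma adjusted p = 0.0408). The value with siAHR-5 had an adjusted p by limma of 0.0537 to 0.0585 when siCtrl replicate 2 or 3 or siAHR-5 replicate 1 or 3 was left out. Its size depended on the scaling, with 0.34 after quantile normalization (limma adjusted p = 0.00108) and 0.12 after median centring (limma adjusted p = 0.0290). Each of these differences was below 1.5-fold.

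Glul and Glud1, which were lower with MYC, differed from siCtrl by at most 0.06 on the log2 scale in the values as deposited. Glul ranged from 14.79 to 14.83 in siAHR-2 and from 14.77 to 14.84 in siAHR-5, and both groups overlapped siCtrl, with 95% intervals of the log2FC of −0.08 to 0.01 and −0.09 to 0.04. Glud1 ranged from 15.92 to 15.94 in siAHR-2, with a log2FC of −0.06 (limma adjusted p = 0.0341, but 0.0185 with an adjusted p of 0.551 after quantile normalization), and from 15.99 to 16.01 in siAHR-5, with a log2FC of 0.01 (95% interval −0.03 to 0.06). With siAHR-5 the values depended on the scaling, since Glud1 was 0.11 (limma adjusted p = 0.0102) after quantile normalization and Glul −0.09 (limma adjusted p = 0.0378) after median centring. In the values as deposited, the intervals of both genes lay inside 1.5-fold under either siRNA. The adjusted p of Glud1 with siAHR-2 rose to between 0.0669 and 0.119 when siCtrl replicate 2 or 3 or any 1 of the siAHR-2 libraries was left out.

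**Figure D4:**
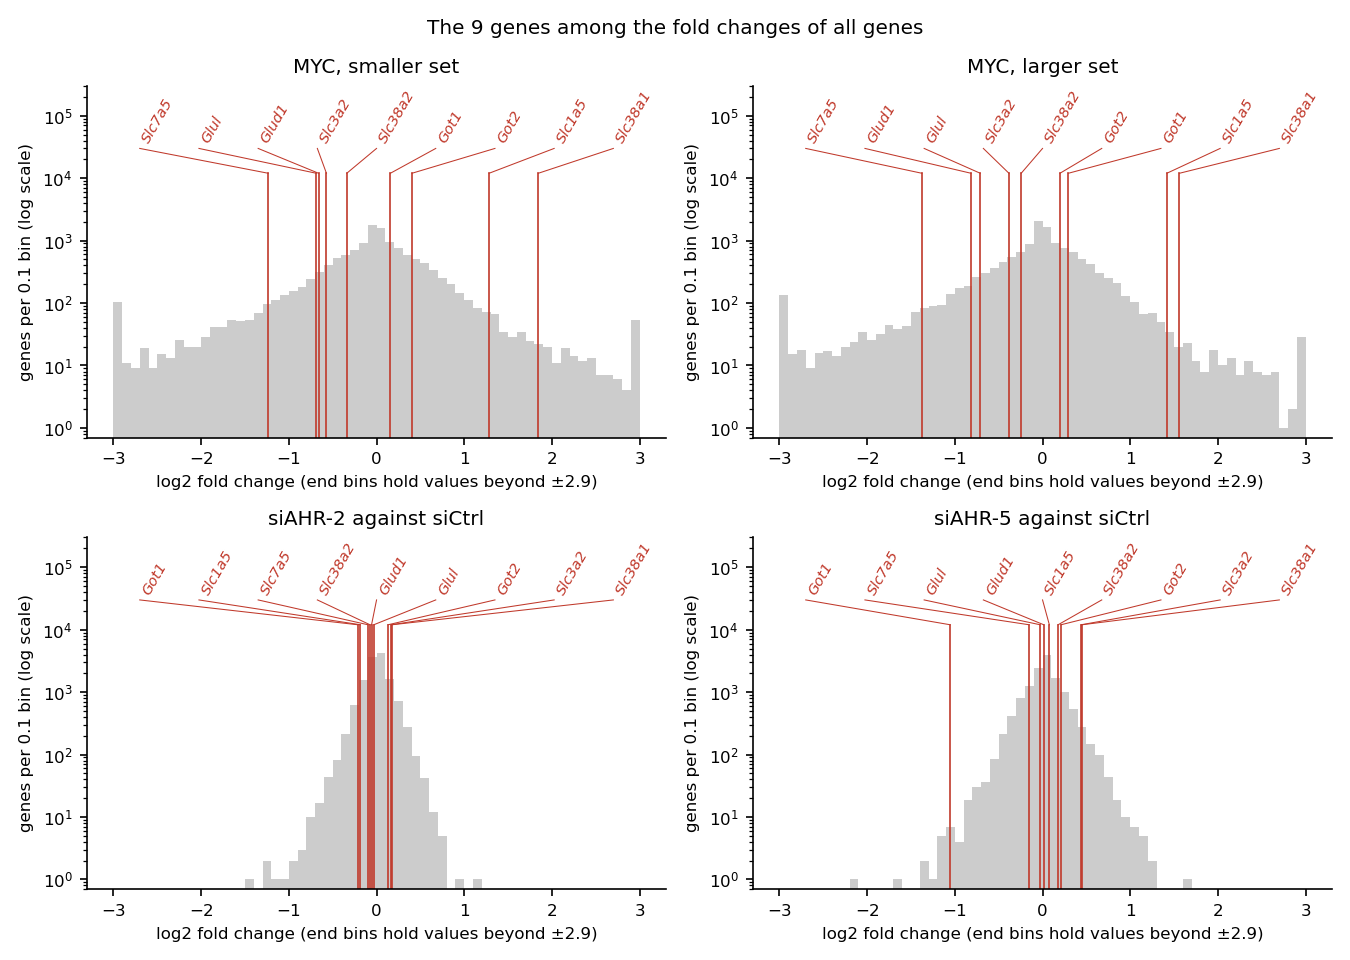
Number of genes per 0.1 interval of log2FC (vertical axis, log scale) over all 13188 genes in 4 comparisons (horizontal axis, log2FC), with the 9 genes marked by red lines. The end bars hold the genes beyond the axis. The 9 genes lie on both sides of 0 in both comparisons for MYC. With siAHR-2 they lie from −0.21 (Got1, with 6.63% of all genes below it) to 0.18 (Slc38a1, with 89.2% below it). Of the 9, Got1 alone lies in the lower tail with siAHR-5, where 96.3% of all genes lie below Slc3a2 and 96.6% below Slc38a1.

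Over the 4 groups of the larger set, the order of the group means differed between the genes. Slc1a5 ran from myc−/− to siAHR-2, siCtrl and siAHR-5, with no overlap of neighbours, although the difference of siCtrl and siAHR-5 did not pass the test given above. Slc38a1 ran from myc−/− to siCtrl, siAHR-2 and siAHR-5, and siCtrl and siAHR-2 overlapped. For Glul and Slc7a5 the 3 groups with MYC lay together below myc−/−, and the siRNA groups overlapped each other. The pattern of each gene over the 18 libraries, centred within its set, was compared with that of every other gene, as a description in which the libraries share their normalisation. The gene with the highest Pearson correlation was Parva for both Glud1 (0.998) and Slc7a5 (0.996), Ctsb for Glul (0.996), Vezt for Slc1a5 (0.993), Sirt4 for Slc38a1 (0.993), Kazald1 for Got2 (0.994), Eef1d for Got1 (0.987), Pdhx for Slc3a2 (0.981) and RGD1311863 for Slc38a2 (0.961). Among the 9 genes, Slc7a5 and Glud1 correlated by 0.994, and Got1 correlated with Glud1 by 0.01.

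The other genes of these pathways were described by lists, whose counts stand beside shares over all genes of 12.5% called higher and 14.3% called lower in the smaller set and of 10.8% and 14.7% in the larger set. Of 21 measured enzymes of glutamine, glutamate and proline, 7 rose and 2 fell with MYC in the smaller set, and 3 rose and 1 fell in the larger set. Their median log2FC was 0.16 and 0.22, on the opposite side of 0 from the 9 genes. The alanine transaminases Gpt2 (log2FC 1.09 and 0.97) and Gpt (1.02 and 0.85) rose in the smaller set and the larger set, and the ornithine aminotransferase Oat fell (−0.62 and −0.78, but −0.38 and −0.58 after quantile normalization, which were not called). Of 10 glutamine amidotransferases, which pass the amide nitrogen of glutamine to nucleotides and other products, 2 rose and 2 fell in the smaller set and 2 rose and 1 fell in the larger set, with Cad, the enzyme that starts pyrimidine synthesis, higher in both (0.87 and 1.32) and the NAD synthetase Nadsyn1 lower in both (−0.65 and −0.74). None of 5 other genes of the malate-aspartate shuttle and mitochondrial glutamate carriage was called in either set, and 3 of them had an unadjusted p below 0.05 by limma in each set, beside 77.5% of all genes in the smaller set and 67.3% in the larger set.

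Of 28 other amino acid transporters, 7 rose and 5 fell in the smaller set and 3 rose and 3 fell in the larger set, beside 26.8% and 25.5% of all genes called in either direction, with medians of 0.02 and −0.0001. The glutamate carrier Slc1a3 (2.97 and 2.13) and the light chain Slc7a8 (2.39 and 0.70) rose in both sets, and the cystine-glutamate antiporter Slc7a11 fell (−1.84 and −1.12). Slc7a5 and Slc7a8 are alternative light chains of the same heavy chain, Slc3a2, and they moved in opposite directions with MYC in both sets. Other light chains did not share 1 direction. Slc7a11 fell, whereas Slc7a6 (0.66) and Slc7a7 (0.65), singled out after their values were seen, rose in the smaller set. In the larger set the means in myc−/− and myc−/− + MYC siCtrl were 13.51 and 13.96 for Slc7a6 and 8.42 and 8.04 for Slc7a7. Of 13 genes of the amino acid response, 1 rose and 6 fell in the smaller set and 1 rose and 4 fell in the larger set, beside 14.3% and 14.7% of all genes called lower, with medians of −0.40 and −0.18. The transcription factor Cebpb (−1.85 and −1.67) and the glutathione-degrading enzyme Chac1 (−1.56 and −1.80) fell, whereas Ddit4, a stress-induced inhibitor of mTORC1, rose (1.03 and 2.34). Atf4, the factor that drives Slc7a5 and Slc3a2 transcription in amino acid shortage, was singled out after its values were seen, had log2FC of 0.32 and 0.45 and was not called.

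**Figure D5:**
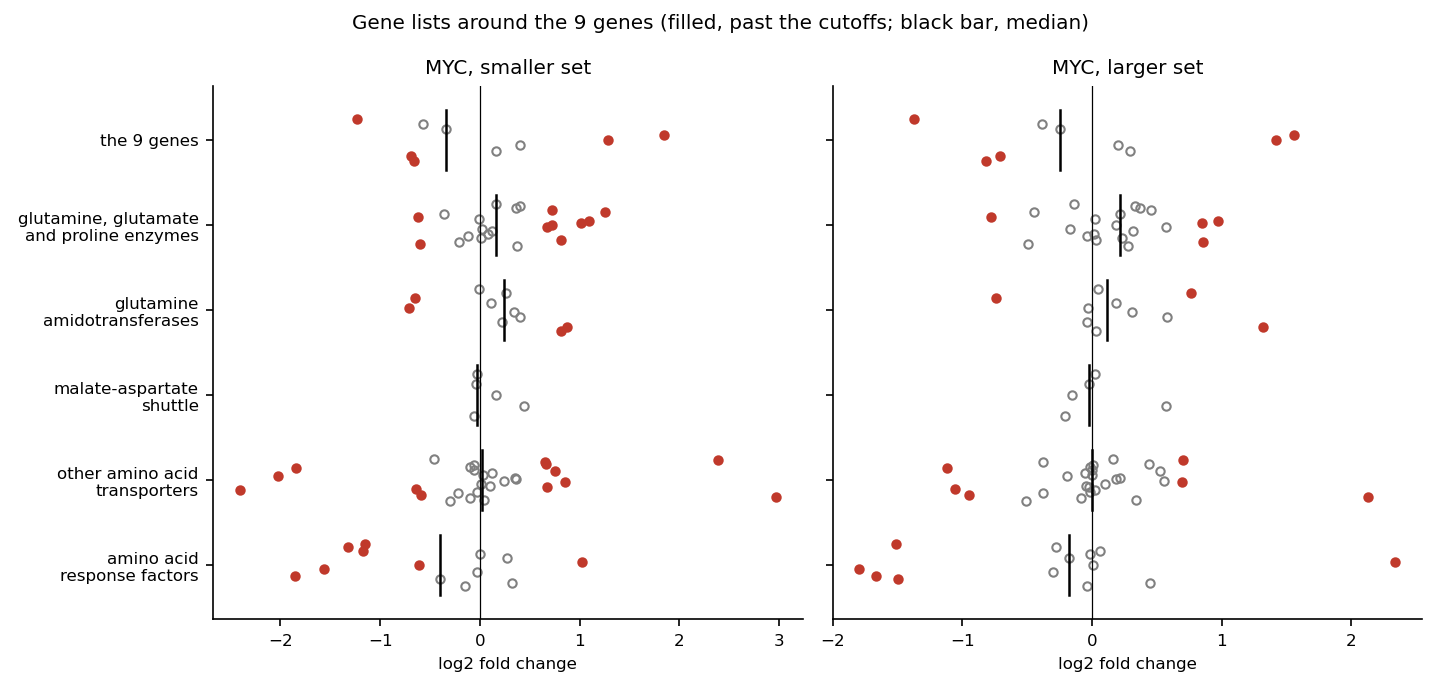
log2FC (horizontal axis) for MYC in the smaller set and the larger set of each gene in 6 lists (rows). Filled points passed the call rule, open points did not, and black bars are medians. Of the 9 genes, 2 filled points lie above 0 and 3 below it in both sets, and the amino acid response list has 6 filled points below 0 in the smaller set and 4 in the larger set.

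With siAHR-2, where 0.47% of all genes were called, 1 gene of these lists was called, Chac1 (−0.60, limma adjusted p = 0.000611). With siAHR-5, where 1.48% of all genes were called higher and 0.849% lower, the enzymes Gpt2 (−0.67) and Oat (−0.82) and the amidotransferase Gmps (−0.59) fell, and the glycine transporter Slc6a9 (0.68), Slc7a11 (0.65), Ddit3 (0.63) and Ddit4 (0.66) rose. Chac1 was not called with the replicate number as a block (limma adjusted p = 0.0137) or without siCtrl replicate 3 (−0.56), nor was Gmps without siCtrl replicate 1 (−0.58), siCtrl replicate 3 (−0.58) or siAHR-5 replicate 2 (−0.55). After quantile normalization Gmps (−0.57) and Slc7a11 (0.57) were not called either, and after median centring Ddit3 (0.57) was not.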

How the data were processed

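RNA-seq of 18 poly-A libraries was used. The authors aligned reads to rn6 with HISAT2 2.1.0, removed genes with few reads and normalised with DESeq2. The counter, annotation and log transform are not given in the sources used here. The deposited table holds log2 normalised values, although its name says CPM, so depth is unknown and no count model was fitted. Its libraries lie on 2 scales, and 0 value columns were without a sample.

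limma 3.58.1 in R 4.3.3 was fitted to the log2 values as deposited, over all 13188 genes with a mean-variance trend and only the groups compared. Genes were called at a 1.5-fold change and a Benjamini-Hochberg adjusted p below 0.01, the pair of cutoffs the study used in its results for MYC, and the adjusted p below 0.05 of its methods was an alternative. Intervals are 95%. Calls were tested on simulated data. Named genes were the 9 genes, up to 3 genes per other list called in both sets, Ahr, Myc and the gene closest to each of the 9 by correlation. Genes outside this rule are named as such or as markers, or were the list genes called with an siRNA. The 9 genes and the lists were chosen with earlier results of these data known.

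The alternatives were another cutoff, all 12 libraries of a set in 1 fit, no trend, quantile normalization, median centring, a minimum mean of 5, a pseudocount of 1, a replicate block and leaving out each library. Promoter sequences are from RefSeq (GRCr8), which is not the build of the files, and were matched by symbol. Figures were drawn with matplotlib 3.10.9.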

Additional observations from a re-analysis of the deposited data

Results flagged for a closer look

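Got1 was set apart by the direct comparison of the 2 siRNAs against AHR, with a log2FC of −0.84 for siAHR-5 against siAHR-2, while both siRNAs lowered Ahr.

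The effect of MYC differed between the larger set and the smaller set for named genes of the lists, controls and markers. None of them was among the 9 genes. The test was that of the difference itself (limma, 1.5-fold and adjusted p below 0.01). The differences, as the effect in the larger set minus that in the smaller set, included 0.88 for Ahr, −1.42 for Myc, −0.84 for the glutamate carrier Slc1a3, −1.69 for the light chain Slc7a8, 0.73 for the antiporter Slc7a11, 1.31 for Ddit4, 0.62 for Ddit3 and −4.22 for the collagen Col1a1. Of the 11 fibroblast markers, 5 were called lower for this difference, beside 16.5% of all genes called in either direction. Col1a1 and Thy1 were among them. Thy1 had a log2FC of −1.15 in the smaller set and −2.20 in the larger set. With groups of 3, no library was tested for standing apart from its group.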

How the results depend on the processing

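The number of the 9 genes called moved most with the cutoff. With an adjusted p below 0.05 and no limit on fold it was 9 in the smaller set and 9 in the larger one, 6 with siAHR-2, 6 with siAHR-5, 6 for siAHR-5 against siAHR-2 and 5 for the difference between the sets. With quantile normalization it was 3 in the smaller set, since Glud1 (−0.58) and Glul (−0.47) no longer reached 1.5-fold, and 4 in the larger set (Glul −0.51). Median centring added Slc3a2 (−0.61) in the smaller set, as did leaving out myc−/− + MYC replicate 2 or 3 (−0.59 each). Over all libraries left out in turn the count ranged from 5 to 6 in the smaller set, and it stayed at 5 in the larger set, at 0 with siAHR-2, at 1 with siAHR-5 and at 1 for siAHR-5 against siAHR-2. The calls of Slc1a5, Slc38a1 and Slc7a5 in both sets and of Got1 with siAHR-5 held under each alternative run.

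Some values near 0 changed sign without being called. With quantile normalization the log2FC with siAHR-2 was 0.0185 for Glud1, 0.0325 for Glul and 0.0251 for Slc38a2, that of Glul with siAHR-5 was 0.0133, and that of Glul for siAHR-5 against siAHR-2 was −0.0192. With median centring Glud1 with siAHR-5 was −0.0458, Glul for siAHR-5 against siAHR-2 was −0.0243, and the difference between the sets for Glul was 0.0621. Leaving out 1 library gave Glul values from −0.0098 to 0.0252 for siAHR-5 against siAHR-2 and differences between the sets from −0.0518 to 0.0288 for Glul. Quantile normalization also moved uncalled values by over 1.5 times, with MYC to 0.28 for Got1 in the smaller set and to 0.38 for Got2 and −0.23 for Slc3a2 in the larger set. With siAHR-2 it moved Got2 to 0.20, Slc3a2 to 0.26 and Slc38a1 to 0.10, and with siAHR-5 Glud1 to 0.11, Slc38a1 to 0.30 and Slc38a2 to 0.34. The value of Glud1 with siAHR-2 had an adjusted p by limma of 0.0814 with the replicate number as a block, and with siAHR-5 Slc1a5 was 0.0178 and Glul −0.09 after median centring. The cause of these shifts was not tested.

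With the replicate number as a block, 5 of the 9 genes were called in the smaller set, 5 in the larger set, 0 with siAHR-2, 1 with siAHR-5 and 1 for siAHR-5 against siAHR-2, as without it. In no comparison did all 3 same-numbered pairs of libraries deviate together by a correlation above 0.1, so the numbers were not taken as pairs. Outside the 9 genes, the block took the adjusted p of Ahr (0.0126) and Chac1 (0.0137) with siAHR-2 past 0.01. Oat (−0.38 in the smaller and −0.58 in the larger set), Gmps (−0.57) and Slc7a11 (0.57) with siAHR-5 were not called after quantile normalization, nor was Ddit3 with siAHR-5 (0.57) after median centring. Chac1 with siAHR-2 was −0.56 without siCtrl replicate 3. Gmps with siAHR-5 ranged from −0.58 to −0.55 without siCtrl replicate 1, siCtrl replicate 3 or siAHR-5 replicate 2, and was not called in these fits. Depth is unknown for these log2 values, so small changes of low genes cannot be weighed against counting error.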
